A study of Homo sapiens with 6 samples.

Results

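LAGE3 and the other 4 subunits of the human KEOPS complex, OSGEP, TPRKB, TP53RK and GON7, were examined in Calu-6 cells after knockdown of TERT Delta 2-4. LAGE3 was chosen by its measured fall in siDelta2-4 libraries, and the other subunits were taken as its partners in the complex, whatever their values. All 5 genes had rows in the count table, among 10072 genes in all, and 3 of them (LAGE3, TPRKB and GON7) held enough counts to be tested. Calu-6 is an established human lung cancer line, labelled as wild type. The column names carry the word Empty, which the study uses for Calu-6 cells with stable expression of an empty Flag-V5 vector, so both descriptions are given. Over 48 h the cells received, at 10 nM, a control siRNA (siControl, 3 libraries) or an siRNA to the junction that joins exons 1 and 5 in TERT Delta 2-4 (siDelta2-4, 3 libraries). Polyadenylated RNA was read as full-length cDNA on a nanopore sequencer, and each count is a long read given to a transcript model.

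KEOPS makes N6-threonylcarbamoyladenosine (t6A), a modified base next to the anticodon of the tRNAs that read codons starting with A, and t6A helps these tRNAs to pair correctly and to start translation in frame. OSGEP carries the active site, TP53RK is an atypical kinase that drives its turnover, TPRKB binds TP53RK, LAGE3 bridges OSGEP, and GON7 docks on LAGE3. YRDC supplies the activated threonylcarbamoyl group that OSGEP transfers. The complex was also found in yeast in work on telomeres, and inherited defects in its subunits cause Galloway-Mowat syndrome, a disease of kidney and brain. LAGE3 belongs to the ESO/LAGE gene family on the long arm of the X chromosome, whose other members are cancer-testis antigens.

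The siControl libraries held 1037468 to 1106413 counts and the siDelta2-4 libraries 1070009 to 1309241, and within a group the libraries are called deepest, middle and shallowest by their totals, since the numbers in the column names are not in the sample labels. TERT, the targeted gene, had 0 rows, so the knockdown was not checked here. Each row of the table, known models included, had at least 1 count in siDelta2-4, so a gene lost altogether after siDelta2-4 could not be seen. Of the epithelial markers, KRT18 held 497 counts in siControl and 627 in siDelta2-4, KRT8 held 382 and 442, EPCAM held 5 and 8, and KRT19 held 0 and 1, while CDH1 and the 7 markers of blood, endothelial and fibroblast cells had no row. The study calls these libraries biological replicates, but nothing in the labels says that the libraries of a group came from separate cultures. The p-values measure the spread between these libraries, which by the labels alone may be technical.

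LAGE3 (ENSG00000196976.8, GRCh38 chrX:154477775-154479281, minus strand) was counted on a single transcript model, the known coding model LAGE3-201 of 3 exons and 967 bases, which encodes 143 codons. All 100 of its counts lay on this model, and no truncated or unannotated model of the gene was listed. The authors dropped unannotated models with few reads, so partial reads of LAGE3 may be missing from these counts. A read is given to a known model by its splice junctions.

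The retrocopy LAGE3P1 (chromosome 9, 33019682 to 33020165) matched LAGE3-201 at 89.1% of 477 aligned positions. LAGE3P1 had no row in the table. The family members CTAG1A, CTAG1B and CTAG2 had no row either, and the best local alignment of LAGE3-201 with CTAG2-201 was 65.0% identical over 286 positions. At its 3′ end LAGE3 overlaps the opposite-strand gene PLXNA3 by 5 bases, and PLXNA3 had no row. Whether reads of these genes were counted as LAGE3 was not tested.

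In siControl, LAGE3 had 26 counts in the deepest library, 21 in the middle one and 29 in the shallowest. In siDelta2-4 it had 9, 5 and 10 in the same order. Every siDelta2-4 library lay below every siControl library. In CPM (counts per 1000000 on library totals adjusted by the TMM method) the siControl level was 24.4 ± 3.90 and the siDelta2-4 level 6.78 ± 2.65 (SD, n = 3 each). The log2 fold change was -1.85 ± 0.33 (SE), so that the siDelta2-4 level was 27.7% of the siControl level, a 3.62-fold difference. Summed over libraries, LAGE3 had 76 counts in siControl and 24 in siDelta2-4. This fall is the reason the gene was chosen, and it is given as a description with no test. In bulk RNA, fewer cells that make a transcript and less of it per cell cannot be told apart. For background, 463 of 3888 tested genes (11.9%) were lower in siDelta2-4 with no overlap of CPM between the groups, and nothing is read from LAGE3 being among them.

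**Figure D1:**
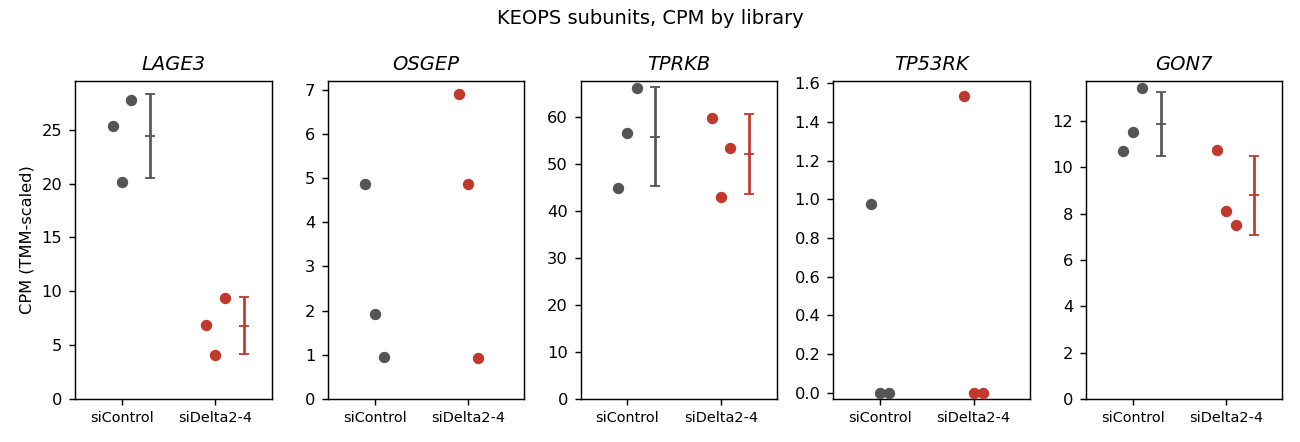
CPM of the 5 KEOPS subunits (y axis, counts per 1000000 on TMM-scaled totals, a scale of its own for each gene) in 3 siControl and 3 siDelta2-4 libraries. Points are libraries, from the deepest to the shallowest, and bars are the mean ± SD for the 3 tested genes. The LAGE3 points of siDelta2-4 (4.06 to 9.36) lie below all those of siControl (20.1 to 27.8), while the points of the other genes overlap.

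TPRKB (ENSG00000144034.16, chr2:73729104-73737400), the partner of the kinase, held most of the counts of the complex when all its models were summed. In siControl, 105 of its 174 counts lay on models that match only part of a known transcript. The other subunits had counts on known models alone. On known models TPRKB thus had fewer siControl counts than LAGE3, which had 76. Its siControl counts were 46, 59 and 69 and its siDelta2-4 counts 78, 53 and 57, from the deepest to the shallowest library. The groups overlapped, at 55.8 ± 10.6 CPM for siControl against 52.1 ± 8.47 CPM for siDelta2-4 (SD, n = 3 each). The log2 fold change was -0.10 ± 0.18 (SE, adjusted p = 0.798 in edgeR's quasi-likelihood test over 3888 genes), and its 95% interval ran from -0.48 to 0.28. The sign of the small difference turned to 0.02 when the shallowest siControl library was left out, and likewise when the middle siDelta2-4 library was.

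GON7 (ENSG00000170270.5, chr14:93202894-93207065), the small subunit that docks on LAGE3, was read 11, 12 and 14 times in siControl, against 14, 10 and 8 times after siDelta2-4. Its level was 11.9 ± 1.38 CPM for siControl and 8.79 ± 1.72 CPM for siDelta2-4 (SD, n = 3 each). The ranges just met, at 10.72 CPM in the lowest siControl value and 10.74 CPM in the highest siDelta2-4 value. The log2 fold change was -0.42 ± 0.34 (SE, edgeR adjusted p = 0.489), and the 95% interval was -1.11 to 0.28. This interval holds both no change and a fall below 50% of the control level, so at this depth a moderate change of GON7 was not detectable. Of its 69 counts, 68 lay on the model GON7-201. The difference kept its sign in each of the 13 alternative settings that kept GON7.

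OSGEP (ENSG00000092094.11, chr14:20446401-20455089), the catalytic subunit, was read 5, 2 and 1 times in siControl and 9, 6 and 1 times after siDelta2-4, all on the known 11-exon model OSGEP-201. These counts did not pass the filter on low values. The summed counts were 8 and 16, a ratio of 1.81 per total count with an exact 95% interval from 0.730 to 4.88. This interval covers counting error only and holds both a rise and a fall, so neither could be told. TP53RK (ENSG00000172315.6, chr20:46684365-46689444) held a single siControl count, in the deepest library, and 2 siDelta2-4 counts, also in the deepest, which is at or under the floor of 3 counts in each group, and no fold is given. The 2 enzymatic subunits of the complex were thus the least counted. Both have longer transcripts, of 1976 and 3180 bases, than the other subunits. Whether length bears on their counts was not tested.

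Of the 4 partner genes, 2 were tested and 0 passed the threshold (edgeR adjusted p under 0.1; both unadjusted p-values were above 0.05, at 0.592 for TPRKB and 0.229 for GON7). Over all genes tested, 504 of 3888 (13.0%) passed, of which 232 (5.97%) were lower and 272 higher. With 2 genes, a count of 0 is near what this background gives. No test compared the change of LAGE3 with that of its partners, since LAGE3 was picked for its value.

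**Figure D2:**
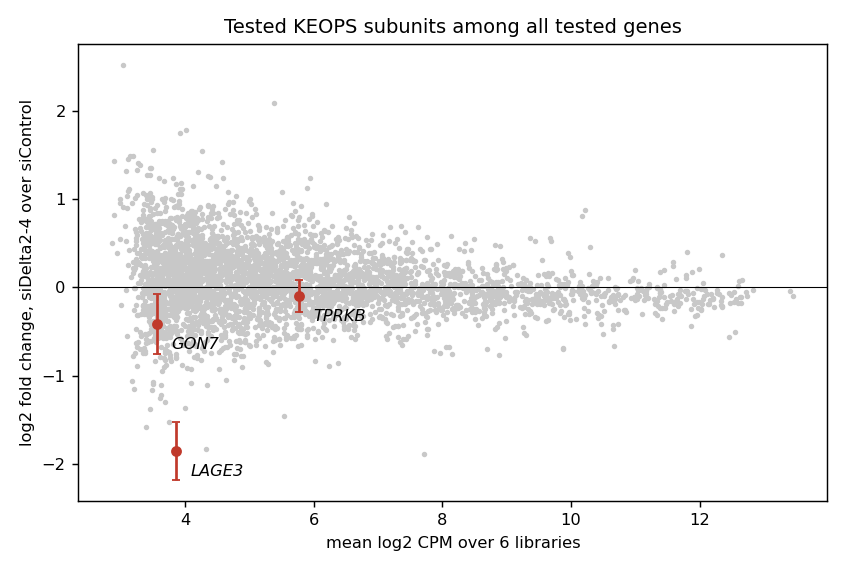
Log2 fold change of siDelta2-4 over siControl (y axis) against mean log2 CPM over the 6 libraries (x axis) for 3888 tested genes. Red points are the tested KEOPS subunits with their SE. LAGE3 lies at -1.85, and TPRKB (-0.10) and GON7 (-0.42) lie within the cloud.

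The makeup of the KEOPS counts was compared inside each library, where library scaling plays no part. From the deepest to the shallowest siControl library, LAGE3 made up 29.2%, 22.3% and 25.7% of the counts of the 5 genes. The same share was 8.04%, 6.76% and 13.2% after siDelta2-4. The exact 95% intervals of these shares, which cover counting error only, reached down to 14.4% in siControl and up to 22.9% in siDelta2-4, so single libraries were not all apart at this depth. For every 100 TPRKB counts, truncated models included, there were 35.6 to 56.5 LAGE3 counts in siControl and 9.43 to 17.5 in siDelta2-4. The share of GON7 was 12.4% to 12.8% in siControl and 10.5% to 13.5% in siDelta2-4. Together the 4 partners reached 70.6 ± 9.53 CPM for siControl against 65.6 ± 12.0 CPM for siDelta2-4 (SD, n = 3 each), with overlapping ranges of 61.4 to 80.5 and 56.1 to 79.0. These shares use the counts that chose LAGE3 and are descriptions.

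Per kilobase of transcript, the siControl order of levels was TPRKB, LAGE3, GON7, OSGEP and TP53RK. Each count is a long read, so counts need not grow with transcript length. The order of mean siControl CPM was the same, at 55.8, 24.4, 11.9, 2.58 and 0.325. This CPM order counts the truncated models of TPRKB, without which TPRKB had fewer siControl counts than LAGE3. In CPM, however, OSGEP (0.958 to 4.87) and TP53RK (0 to 0.975) overlapped. The levels in CPM per kilobase were 83.5 ± 15.9 for TPRKB, 25.3 ± 4.04 for LAGE3 and 10.7 ± 1.24 for GON7 (SD, n = 3 each), and per kilobase no neighbours in this order overlapped. OSGEP ranged from 0.485 to 2.47 and TP53RK from 0 to 0.307. In siDelta2-4 the level of LAGE3 was 7.01 ± 2.74 CPM per kilobase and that of GON7 was 7.88 ± 1.55 (SD, n = 3 each). Their ranges of 4.20 to 9.68 and 6.72 to 9.64 overlapped, so these neighbours did not differ beyond their spread. TPRKB stayed the highest there, at 77.9 ± 12.7.

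**Figure D3:**
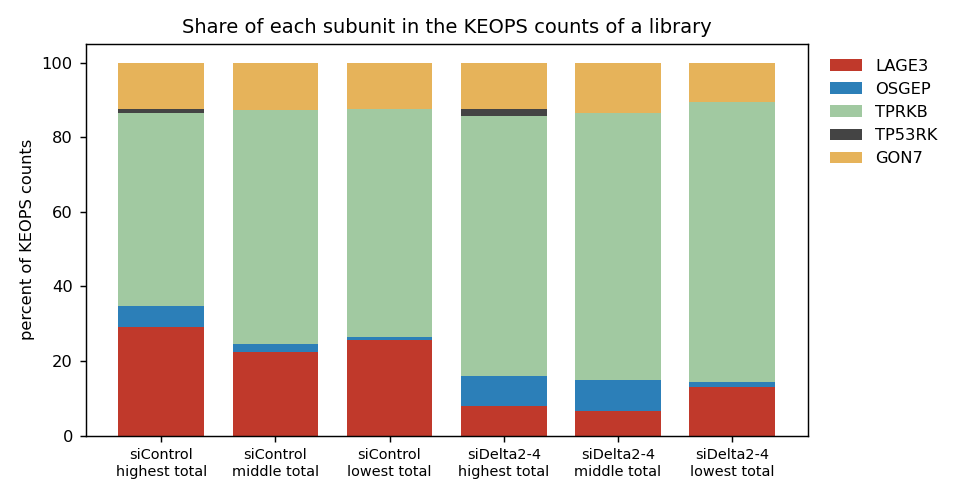
Percent of the KEOPS counts of each library (y axis) that fell on each subunit (colours), for the 6 libraries (x axis). The LAGE3 share lies between 22.3% and 29.2% in siControl and between 6.76% and 13.2% in siDelta2-4. TPRKB, with its truncated models counted, is the largest part of every bar.

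TPRKB was counted on 7 models and GON7 on 2, of which the second held 1 count, so the choice of isoform could be compared for TPRKB, a measure that took no part in choosing the genes. TPRKB-201 has 5 exons and encodes 175 codons. TPRKB-202 and TPRKB-203 have 6 exons and encode 214 codons, because a cassette exon keeps the reading frame.

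Of the 141 counts on the 3 coding models, 41 carried the exon, a share of 29.1% with an exact 95% interval of 21.7% to 37.3% that covers counting error only. It is not the share over all TPRKB counts, since 218 counts on truncated models are left out. Of these, 175 lay on a model that by length lacks the exon and 43 on one that by length holds it. From the deepest to the shallowest library the share was 35.3%, 32.0% and 22.2% for siControl, and 32.4%, 26.3% and 26.3% for siDelta2-4. The groups overlapped, at 29.8% ± 6.80 against 28.3% ± 3.49 (mean ± SD of 3 libraries). An exact permutation test, two-sided, gave p = 0.9, where 0.1 is the smallest p that 3 libraries against 3 allow.

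Truncated TPRKB models, whose junctions match only part of a known transcript, held 218 of the 362 counts. Their share was 60.5% ± 2.73 for siControl against 60.8% ± 5.06 for siDelta2-4 (mean ± SD of 3 libraries; p = 1 by the same exact permutation test). The most counted was TALONT000618674, with 4 exons, 620 bases and 175 counts, followed by TALONT000618696, with 5 exons, 737 bases and 43 counts. By length, TALONT000618674 matches exons 2 to 5 of TPRKB-201 (163, 123, 177 and 157 bases), which lack the cassette exon. TALONT000618696 matches the same exons with the cassette exon of 117 bases added. The junctions of these truncated models were not checked here. The retrocopies TPRKBP1 and TPRKBP2, which matched TPRKB-201 at 88.7% and 67.9% of aligned positions, had no row.

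**Figure D4:**
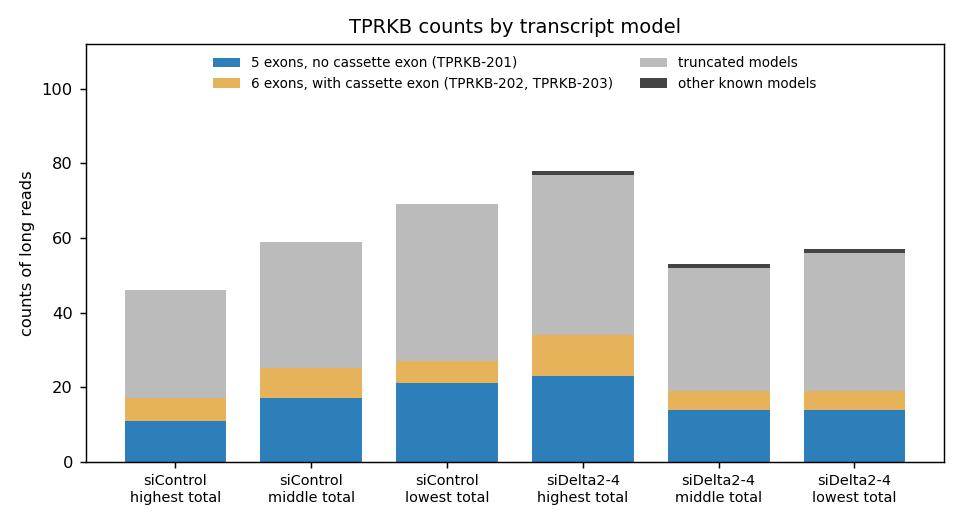
TPRKB counts of long reads (y axis) by kind of transcript model (colours) in the 6 libraries (x axis). Truncated models hold 29 to 43 counts of each library, and the forms with and without the cassette exon appear in all 6.

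The promoters of 2 subunits lie head to head with another counted gene. APEX1, the main DNA repair endonuclease for abasic sites, starts 102 bases from OSGEP on the other strand and had 330 counts, at 48.2 ± 6.31 CPM for siControl against 50.1 ± 11.5 CPM for siDelta2-4 (SD, n = 3 each). Its log2 fold change was 0.05 ± 0.19 (SE, edgeR adjusted p = 0.904). UBR7, a ubiquitin ligase of histone H2B, starts 176 bases from GON7 and had 10 counts, too few to test. The read-through gene ENSG00000259066, which overlaps GON7 on the other strand, had no row.

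The t6A pathway around KEOPS was thinly counted. YRDC, which makes the substrate, had no row. OSGEPL1, the mitochondrial counterpart of OSGEP, held 3 counts for siControl and 1 for siDelta2-4, TRMO, which methylates t6A further, had 2 and 5, and CDKAL1, which adds a methylthio group to it, had 0 and 2. None of these 4 genes could be tested. Of 7 cytosolic synthetases that charge t6A-carrying tRNAs, 6 had rows and 2 were tested. On the log2 scale, SARS1 (seryl) differed by 0.01 ± 0.21 (SE; 95% interval -0.41 to 0.44; adjusted p = 0.981 in edgeR). KARS1 (lysyl) differed by 0.40 ± 0.35 (SE; 95% interval -0.31 to 1.12; adjusted p = 0.527 in edgeR). MARS1 had 16 counts in each group, NARS1 9 and 8, RARS1 11 and 25 and TARS1 8 and 21 in siControl and siDelta2-4, below the filter, and IARS1 had no row.

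Among 41 other enzymes and cofactors that modify the anticodon loop, 29 had rows, 7 were tested, 1 was called higher and 1 lower, against 13.0% called in either direction over all tested genes. The median log2 fold change of the 7 was 0.11, against 0.03 over all tested genes, and with 7 genes nothing is read from either count. DPH3, a small iron protein that serves diphthamide synthesis and Elongator, was read 51, 44 and 49 times in siControl and 115, 92 and 90 times after siDelta2-4. It rose from 46.3 ± 3.81 to 82.4 ± 6.93 CPM (SD, n = 3 each), with no overlap between the groups, as for 547 of 3888 tested genes (14.1%) that were higher. The log2 difference was 0.83 ± 0.16 (SE; adjusted p = 0.00162 in edgeR). It passed the threshold in all 14 alternative settings, and its lowest value, 0.65 (edgeR adjusted p = 0.0128), came with the length trend removed. TRMT112, the shared activator of several tRNA and rRNA methyltransferases, was read 707, 785 and 682 times in siControl and 739, 680 and 618 times after siDelta2-4. It fell from 698 ± 50.4 to 566 ± 13.1 CPM (SD, n = 3 each), also with no overlap, as for 11.9% of tested genes that were lower. The log2 difference was -0.30 ± 0.09 (SE; adjusted p = 0.0281 in edgeR). TRMT112 lost its call when the middle siControl library was left out (-0.25, edgeR adjusted p = 0.208), and when the deepest (-0.31, edgeR adjusted p = 0.109) or the middle siDelta2-4 library (-0.29, edgeR adjusted p = 0.131) was.

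The other 5 tested members of this list were METTL2A, MTO1, ELP6, URM1 and WDR6, with log2 fold changes from 0.01 to 0.52, and none passed the threshold. MTO1 held 4633 siControl and 5816 siDelta2-4 counts and overlaps EEF1A1, which held 13956 in all, on the opposite strand, so its counts are uncertain. Among 29 enzymes that modify the body of tRNAs, 21 had rows, 3 were tested (METTL1, THG1L and TRMT10C) and 0 were called, where 13.0% of all tested genes were, so a count of 0 among 3 says little. They had log2 fold changes from -0.17 to 0.06 and unadjusted p-values all above 0.05.

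The tested genes whose log2 CPM over the 6 libraries was most like that of LAGE3 were EEF1B2 (Pearson r = 0.987), ADAMTS12 (0.975) and the unannotated genes TALONG000068940 (0.974), TALONG000082467 (0.973) and TALONG000080775 (0.973). All 5 were lower in siDelta2-4, with log2 fold changes of -0.12, -0.73, -0.36, -0.80 and -0.40 in that order. The 2 groups make up most of the spread of LAGE3, so any gene with a steady fall scores high, and the r is a measure of likeness with no test. EEF1B2 is a subunit of the translation elongation factor that recharges eEF1A, and it differed between groups by far less than LAGE3 did.

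**Figure D5:**
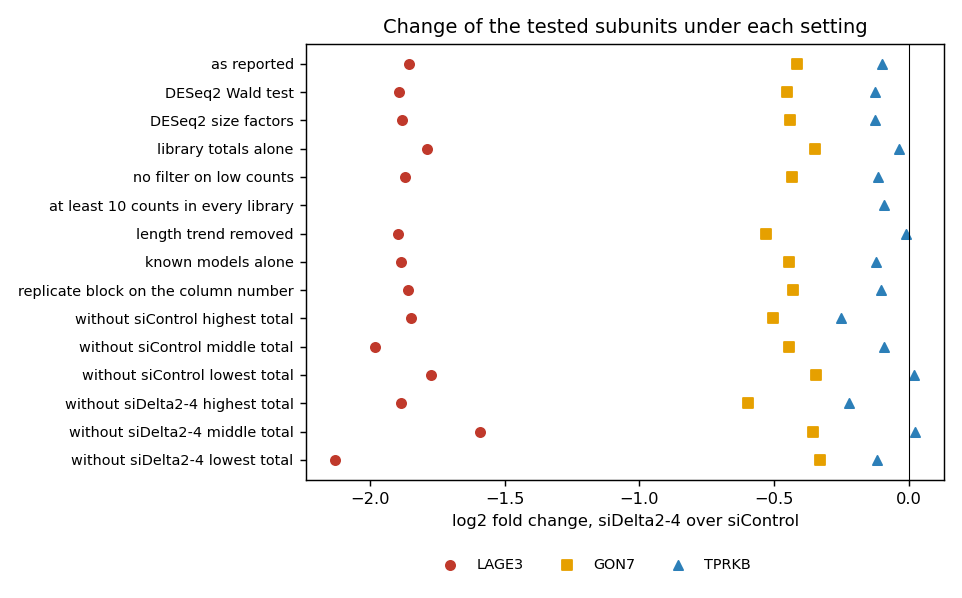
Log2 fold change of siDelta2-4 over siControl (x axis) for LAGE3, GON7 and TPRKB under the reported setting and each alternative (y axis). Highest, middle and lowest total stand for the deepest, middle and shallowest library, and only TPRKB was tested with at least 10 counts in every library. LAGE3 lies between -2.13 and -1.59, GON7 between -0.60 and -0.33, and TPRKB between -0.25 and 0.02.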

How the data were processed

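Long-read cDNA libraries of 6 Calu-6 samples were analysed. The deposited values were raw counts of reads per transcript model. Reads had been aligned by the authors to GRCh38.p14 (minimap2 2.14), handled in SAMtools 1.13, corrected in TranscriptClean and annotated in TALON against Gencode v44, and unannotated models with few reads were dropped. The counts were not normalised. The siRNA named in each count column gave its group, and 0 columns were left out.

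Counts were summed per gene and tested in R 4.3.3 by the quasi-likelihood test of edgeR 4.0.16 (unpaired groups, two-sided, low genes dropped by filterByExpr, TMM scaling, Benjamini-Hochberg adjustment over 3888 genes, called at an adjusted p under 0.1). The SE is the log2 fold change over the square root of F. Log2 CPM used a prior count of 2. Levels per kilobase used the gene's mean length, weighted by counts. Gene positions and the transcripts aligned to copies came from Gencode v44, and all 8168 annotated genes matched it by identifier. The members, gene lists and alternatives were chosen with earlier results of these data known. Named genes were the members, the genes of lists that were called or in lists of at most 7, genes overlapping a member or starting within 5 kb, and the 5 genes most like LAGE3. The tested genes that were not called in longer lists were named after their values were seen. Alternatives were DESeq2 1.42.0, its size factors, library totals alone, no filter, at least 10 counts in every library, a loess trend on length removed (span 0.4), known models alone, a block on the column number and each library left out. The scripts were tested on simulated data. Exon sequences are not reported here.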

Additional observations from a re-analysis of the deposited data

How the results depend on the processing

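The log2 fold change of LAGE3 (-1.85) moved by less than the spread between libraries in the 13 alternative settings that kept it, and ranged from -2.13 (shallowest siDelta2-4 library left out) to -1.59 (middle siDelta2-4 library left out). With at least 10 counts in every library, LAGE3 and GON7 were not tested. GON7 (-0.42) ranged from -0.60 to -0.33 with a library left out and was not called, with no adjusted p from DESeq2 and a lowest edgeR value of 0.370. TPRKB (-0.10) ranged from -0.25 to 0.024 (middle siDelta2-4 library left out; 0.017 with the shallowest siControl library left out) and was called in no setting, with a smallest edgeR or DESeq2 adjusted p of 0.548. With no filter on low counts, OSGEP had a log2 fold change of 0.75 (edgeR adjusted p = 0.714), where the median over all genes was 0.19.

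Over all genes, the 504 calls became 254 with DESeq2 and 252 with known models alone, where fewer genes (1854) were tested. With a library left out they ranged from 194 (the middle siDelta2-4 library) to 1041 (the shallowest siControl library). The 272 higher and 232 lower calls became 361 and 152 with library totals alone and 194 and 283 with the length trend removed. With no filter the median log2 fold change of all genes was 0.19 in place of 0.03. The numbers in the column names did not pair the libraries (correlations of deviations of 0.039, -0.136 and -0.0844), and a replicate block on them gave 299 calls and changed no call named here. Apart from the smaller number of genes with known models, the cause of these shifts was not tested. OSGEP and TP53RK had the fewest counts of the members, and neither a rise nor a fall could be told for them.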
